A study of Mus musculus with 168 samples.

Results

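The subventricular zone (SVZ), the germinal layer along the lateral ventricle, was sampled from old male C57BL/6 mice, and cells of intermediate ribosomal content were set against cells of low ribosomal content. Both groups carry the same labels: a cell type label of old neural stem cells, no genetic change or treatment stated, an age label of 23 months where the protocol gives 22, and a sort that kept CD133 and GLAST carriers and removed cells with CD45 or O4. SVZ tissue of 4 mice was pooled per replicate, cells were then picked by hand 1 at a time, and their RNA was read by Smart-seq2, which covers whole transcripts of 1 cell. No animal is named for any cell, so each group counts as 1 sample, nothing was tested, and every SD and interval below describes cells or counting error only.

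Cells were assigned by R, the percentage of a cell's TPM (a length-corrected share of transcripts that sums to 1000000 in each cell) that lies in ribosomal protein genes. Cells with R from 2 up to below 5 are called intermediate, cells with R of 5 or more rich, and cells with R below 2 low. The rule placed 31 of 133 SVZ cells in the intermediate group (23.3%, exact Clopper-Pearson 95% interval 16.4 to 31.4), 26 in the rich group and 76 in the low group. The comparison therefore used the 31 and the 76 cells, out of 150 single cells in the series, with rich cells serving only for orientation. In the column names the cells fall into a series called ogp and a series called ogp2, whose difference is not stated. The intermediate group held 20 ogp and 11 ogp2 cells, and the low group 30 ogp and 46 ogp2 cells. Intermediate cells were 29.4% of the ogp series (19.0 to 41.7) and 16.9% of the ogp2 series (8.76 to 28.3).

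R itself chose the groups and is given only as a description. It ran from 2.01 to 4.19 with a median of 2.42 in intermediate cells, from 5.14 to 15.01 with a median of 9.12 in rich cells, and from 0.659 to 1.99 with a median of 1.54 in low cells. No gap separated the groups at the lower limit: the first cells above it had R of 2.01, 2.03 and 2.04, and the last below it 1.94, 1.97 and 1.99. At the upper limit the nearest cells had 4.19 and 5.14. Genes detected at 1 TPM or more numbered 1937 to 5782 per intermediate cell (median 3631) and 2066 to 5033 per low cell (median 3095.5). Over the intermediate and low cells together, which share sorts and protocol, R and the number of genes detected had a Pearson r of 0.364. The read depth of a cell is unknown, so its part in these differences was not tested.

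**Figure D1:**
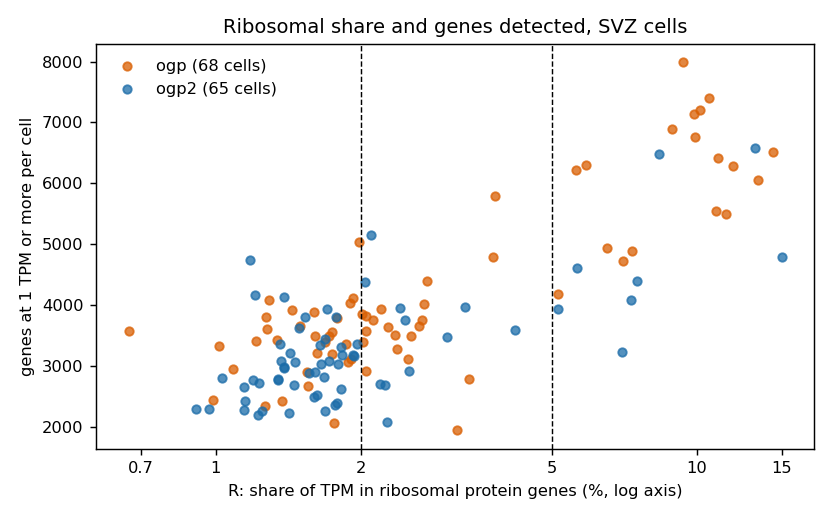
Each point is 1 SVZ cell, with its ribosomal share R on a log axis and the number of genes at 1 TPM or more on the vertical axis, coloured by name series, and dashed lines mark R of 2 and of 5. The 31 intermediate cells lie next to the low cells without a gap, and their median of 3631 genes lies above the 3095.5 of low cells.

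Neural stem cells of the adult SVZ are glia that resemble astrocytes and rest most of the time. On leaving rest they are known to raise protein synthesis and ribosome production first, then to express the growth factor receptor Egfr, and later to divide as transit amplifying cells that yield neuroblasts. Resting stem cells and neighbouring astrocytes share many transcripts, such as those for glutamate transporters, connexins and lipid enzymes. Gfap and Vim (intermediate filaments), Pax6 (a patterning transcription factor), Igfbp5 (a binding protein for insulin-like growth factors) and Thbs4 (thrombospondin 4, a matrix protein of SVZ astrocytes) are more typical of the stem cell than of the parenchymal astrocyte, while S100b is a calcium-binding protein typical of mature astrocytes.

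Intermediate cells kept the glial profile on which they were sorted. Slc1a3, which encodes GLAST, was listed above 1 TPM in every cell of both groups, at 407 to 6901 TPM (median 2638) in intermediate cells and 1074 to 8906 TPM (median 4016) in low cells. Gja1 (connexin 43) was detected in 29 of 31 intermediate and 76 of 76 low cells. Prom1, which encodes the sorting antigen CD133, was detected in only 4 of 31 intermediate and 2 of 76 low cells, and Nes, which encodes the stem cell filament nestin, was listed at 0 in all of them. Of 24 genes of G2 and M phase, 17 stayed below 1 TPM in every intermediate cell, Mki67 and Cdk1 among them, and 13 in every low cell. The summed TPM of those 24 genes did not exceed 203 in any intermediate cell or 223 in any low cell, so neither group held cells with a mitotic profile.

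Before the results, 2 intermediate cells need separate mention. Replicate 87 of ogp2 and replicate 22 of ogp carried 7 and 9 of 16 oligodendrocyte lineage genes at 10 TPM or more, although O4 had been a negative gate. They held 3698 and 5597 TPM of Olig1, 1091 and 1006 TPM of Olig2 and 1177 and 245 TPM of the progenitor receptor Pdgfra, with Gfap, Vim, Thbs4 and Aqp4 listed at 0. Their summed level of the 16 genes was 8310 and 8135 TPM, against a median of 207 TPM over intermediate cells and a highest value of 1675 TPM among low cells. Of the myelin genes, Mog was listed at 0 in both and Mbp reached 0 and 63.3 TPM, while Cldn11 and Enpp6 stayed below 1 TPM in every intermediate cell. The list's median log2 ratio of intermediate over low cells was 4.44 over the 9 genes at 10 TPM or more, and 0.30 without the 2 cells. No low cell held 5 such genes. Values without these 2 cells are given beside named results that lost a 2-fold ratio, changed direction or moved by over 1.5 times.

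Of 8992 genes other than ribosomal protein genes with a mean of at least 10 TPM in either group, 1720 (19.1%) were at least 2-fold higher and 1033 (11.5%) at least 2-fold lower in intermediate cells. Fold differences are ratios of (mean TPM + 1), which understates them for low genes. Without the 2 cells with oligodendrocyte genes these counts were 1581 and 1168. The median log2 ratio over all 8992 genes was 0.15, the level against which gene lists should be read. In both name series taken singly, 682 genes (7.58%) were at least 2-fold higher, which is 32.4% of the 2107 higher in ogp and 35.4% of the 1928 higher in ogp2. Likewise 512 genes (5.69%) were at least 2-fold lower in both, 34.2% of the 1495 lower in ogp and 24.9% of the 2056 lower in ogp2. Opposite directions were also common, with 502 genes (5.58%) higher in ogp and lower in ogp2 and 281 genes (3.12%) the other way. Most 2-fold differences in 1 series were therefore not of that size and direction in the other.

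Gfap, Vim, Pax6 and Igfbp5 had higher means in intermediate cells, in ogp and in ogp2. On GRCm38 these genes lie at chr11:102887336-102900912 (Gfap), chr2:13573927-13582826 (Vim), chr2:105668900-105697364 (Pax6) and chr1:72857932-72874884 (Igfbp5). Gfap ran from 0 to 3082 TPM with a median of 0 in intermediate cells, and from 0 to 1047 TPM with a median of 0 in low cells. Its mean was 286 ± 692 TPM in 31 intermediate cells and 61.5 ± 193 TPM in 76 low cells (SD between cells), a log2 ratio of 2.20. It was detected in 12 of 31 intermediate cells (38.7%, 21.9 to 57.8) and 13 of 76 low cells (17.1%, 9.43 to 27.5). The groups overlapped, and the ratio was larger in ogp (214 against 6.53 TPM) than in ogp2 (415 against 97.4 TPM). Leaving out the intermediate cell with 3082 TPM, ogp replicate 45, lowered the log2 ratio to 1.63.

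Vim reached 1139 TPM in the highest intermediate cell and 1107 TPM in the highest low cell, with medians of 0 in both groups. Its mean was 203 ± 317 TPM in intermediate cells and 36.1 ± 138 TPM in low cells, a log2 ratio of 2.46, with 1.87 in ogp and 2.94 in ogp2. It was detected in 11 of 31 intermediate and 14 of 76 low cells. Without the single low cell that carried 1107 TPM (ogp replicate 4) the log2 ratio was 3.16. In rich cells, by contrast, Vim was detected in 25 of 26, so intermediate cells were a mixture of positive and negative cells where rich cells were almost uniformly positive.

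Pax6 ran from 0 to 463 TPM (median 0) in intermediate cells and from 0 to 265 TPM (median 0) in low cells. Its mean was 74.1 ± 135 TPM in intermediate cells and 19.3 ± 50.7 TPM in low cells, a log2 ratio of 1.89 (1.52 in ogp, 2.25 in ogp2). Detection differed less than the mean, at 14 of 31 intermediate cells (45.2%) and 26 of 76 low cells (34.2%). Igfbp5 ran from 0 to 432 TPM (median 18.3) in intermediate cells and from 0 to 241 TPM (median 0.17) in low cells. It averaged 91.1 ± 130 TPM in intermediate cells and 30.1 ± 51.3 TPM in low cells, a log2 ratio of 1.56 with 1.59 in ogp and 1.41 in ogp2. Of the 4 genes, it alone passed the rule for named genes given further on, which required detection in at least 50% of intermediate cells (17 of 31).

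Thbs4 differed most in detection. It was at 1 TPM or more in 18 of 31 intermediate cells (58.1%, 39.1 to 75.4) and 10 of 76 low cells (13.2%, 6.49 to 22.9). Its values ran from 0 to 839 TPM (median 18.3) in intermediate cells and from 0 to 1493 TPM (median 0) in low cells. The means were 170 ± 221 TPM in intermediate cells and 61.9 ± 220 TPM in low cells, a log2 ratio of 1.44 that was 2.20 in ogp2 and 0.75 in ogp. Thus the few positive low cells held as much Thbs4 as the positive intermediate cells, and what differed was how many cells were positive, 12 of 20 against 5 of 30 in ogp and 6 of 11 against 5 of 46 in ogp2.

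**Figure D2:**
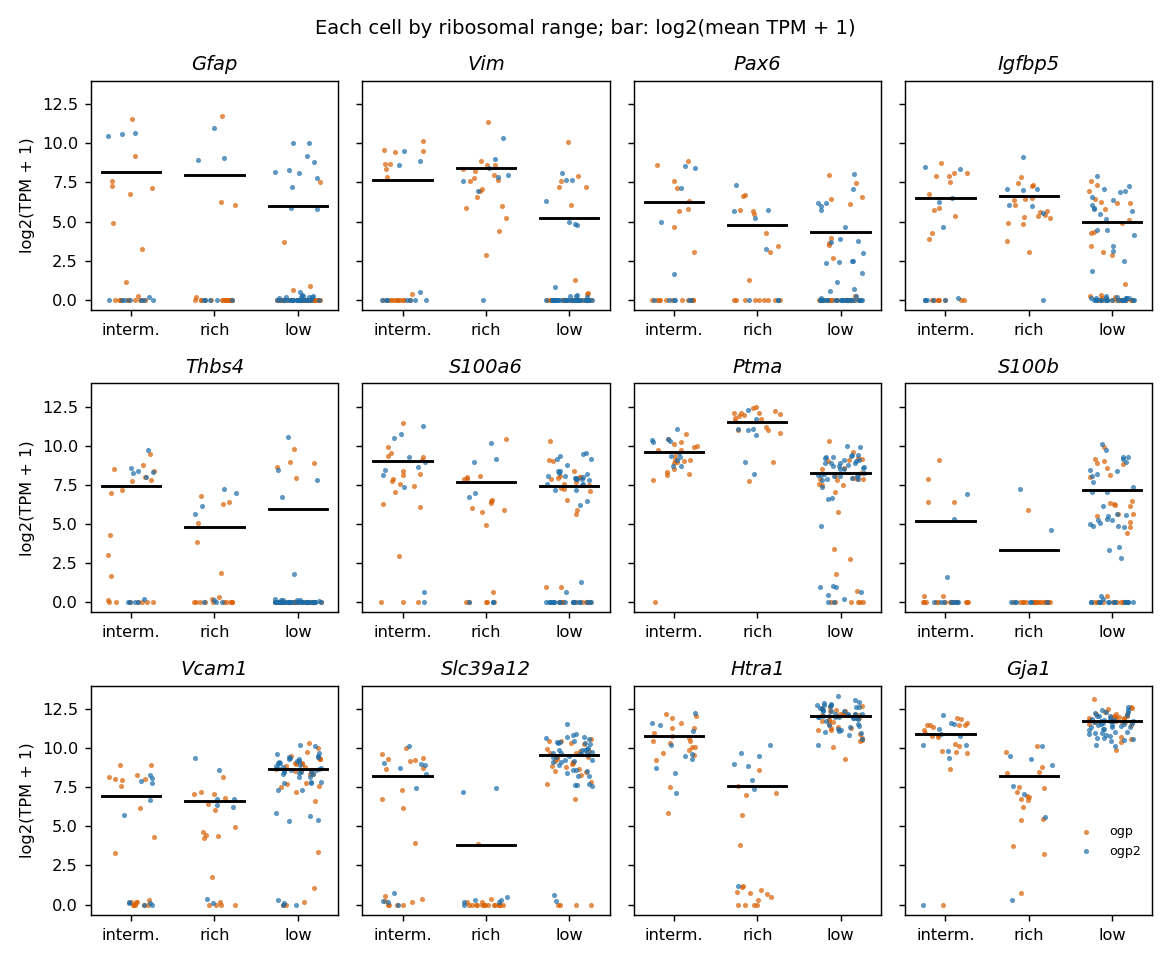
Each point is 1 cell, placed by group (intermediate, rich and low from left to right) and by log2(TPM + 1) of the gene named above the panel, orange for ogp and blue for ogp2, and the bar is log2 of the mean TPM + 1. Gfap, Vim and Thbs4 fall into cells near 0 and cells at high level in the intermediate and low groups, with a larger share of high cells among intermediate cells, whereas Vcam1, Slc39a12 and Htra1 are near uniform in low cells.

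The stem cell transcripts met in the same cells more often in the intermediate than in the low group. They were chosen with earlier results of these data known, and each was detected in a larger share of intermediate cells. More frequent joint detection follows in part from those single shares. The number of joint cells to expect from them was not computed, so the counts below only describe. All of Gfap, Vim, Pax6 and Igfbp5 were detected together in 5 of 31 intermediate cells (16.1%, 5.45 to 33.7) and in 0 of 76 low cells (upper bound 4.74%). The 5 cells comprised 3 of ogp and 2 of ogp2, and all 5 also carried Thbs4. At least 3 of the 5 transcripts occurred in 12 of 31 intermediate cells (38.7%, 21.9 to 57.8) and 8 of 76 low cells (10.5%, 4.66 to 19.7). Rich cells, with a median of 6135.5 genes detected, held at least 3 of the 5 more often still, in 19 of 26 (73.1%). All of Gfap, Vim, Pax6 and Igfbp5 were detected in 2 of 26 rich cells (7.69%). Gfap and Vim were found together in 6 intermediate cells and in no low cell. Taken singly, 13 low cells carried Gfap and 14 carried Vim. Thbs4 and Igfbp5 met in 12 intermediate and 4 low cells. Among cells with 2500 to 4500 genes detected, which brings the medians to 3608 and 3217 genes, at least 3 of the 5 were present in 11 of 26 intermediate cells (42.3%) and 6 of 59 low cells (10.2%).

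Opposite to these stood S100b and a set of glial surface and transport genes. S100b ran from 0 to 547 TPM (median 0) in intermediate cells and from 0 to 1096 TPM (median 33.2) in low cells. It was detected in 7 of 31 intermediate cells (22.6%, 9.59 to 41.1) and 48 of 76 low cells (63.2%, 51.3 to 73.9). Its mean was 36.1 ± 107.5 TPM in intermediate cells and 147 ± 244 TPM in low cells, a log2 ratio of -1.99 (-1.64 in ogp, -3.19 in ogp2), or -2.88 without the highest intermediate cell, ogp replicate 53. S100b and Thbs4 shared 1 of 31 intermediate cells and 3 of 76 low cells.

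The 250 bases before the RefSeq transcript starts of 3 transcripts higher in intermediate cells and of S100b, which was lower, are printed so that their promoters can be read beside these opposite values (build GRCm38.p6, each 5′ to 3′ on the strand of its gene). Capitals mark CCAAT on either strand (ATTGG on the other) and TATAAA on either strand.
Gfap, chr11:102897201-102897450, minus strand: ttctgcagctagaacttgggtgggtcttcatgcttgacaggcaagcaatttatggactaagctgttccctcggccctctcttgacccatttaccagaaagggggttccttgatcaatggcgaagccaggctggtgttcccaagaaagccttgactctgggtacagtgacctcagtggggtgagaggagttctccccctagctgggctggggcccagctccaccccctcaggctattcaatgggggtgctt
Vim, chr2:13574061-13574310, plus strand: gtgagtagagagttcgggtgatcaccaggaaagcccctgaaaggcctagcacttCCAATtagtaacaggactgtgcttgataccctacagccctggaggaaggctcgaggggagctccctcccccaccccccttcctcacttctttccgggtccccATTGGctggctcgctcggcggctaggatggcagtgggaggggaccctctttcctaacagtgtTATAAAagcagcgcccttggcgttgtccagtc
Thbs4, chr13:92794819-92795068, minus strand: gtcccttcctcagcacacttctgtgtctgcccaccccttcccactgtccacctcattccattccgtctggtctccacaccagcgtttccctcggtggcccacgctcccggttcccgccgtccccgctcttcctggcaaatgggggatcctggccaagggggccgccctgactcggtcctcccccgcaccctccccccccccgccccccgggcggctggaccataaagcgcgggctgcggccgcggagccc
S100b, chr10:76253586-76253835, plus strand: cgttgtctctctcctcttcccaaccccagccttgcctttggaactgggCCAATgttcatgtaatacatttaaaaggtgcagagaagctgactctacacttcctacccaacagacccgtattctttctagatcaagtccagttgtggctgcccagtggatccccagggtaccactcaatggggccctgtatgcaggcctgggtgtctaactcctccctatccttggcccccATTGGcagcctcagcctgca
Among 32851 such windows, 33.8% hold CCAAT and 12.4% TATAAA on either strand. The Vim window holds TATAAA with its first base 32 bases before the start and CCAAT at 196 and 94 bases before it, and the S100b window holds CCAAT at 202 and 20 bases before the start. None of these matches overlap. The Gfap and Thbs4 windows hold neither. Both TTCNNNGAA, a STAT-type motif present in 7.02% of windows, and CAGCTG, an E-box present in 4271 of them, read alike on both strands and were found in none of the 4 windows. A match describes letters only.

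The rule for named genes asked for at least 20 TPM and detection in 50% of cells in the higher group, and at least 2-fold in the same direction in ogp and in ogp2. It found 40 genes higher and 36 lower in intermediate cells. Among the 15 highest ranked higher genes were Ptma (prothymosin alpha, an acidic chromatin protein abundant in growing cells), Zc3h14 (a binder of poly(A) tails), Paip2b (a regulator of the poly(A)-binding protein), Pou2f1 (the transcription factor Oct-1), Plxnc1 (a semaphorin receptor), Auts2 (a neurodevelopmental chromatin factor), Atp8a1 (a phospholipid flippase), Pign (synthesis of GPI anchors), Rab5c (early endosomes), Hspb11 (a component of intraflagellar transport) and Aktip. Igfbp5 and the zinc finger genes Zfp968 and Zfp825 were also among them.

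Ptma was the clearest of these in the typical cell. It ran from 0 to 2136 TPM (median 643) in intermediate cells and from 0 to 1273 TPM (median 267) in low cells, and was detected in 30 of 31 and 62 of 76 cells. The mean was 795 ± 485 TPM in intermediate cells and 306 ± 270 TPM in low cells, a log2 ratio of 1.37 with 1.47 in ogp and 1.51 in ogp2. Rich cells averaged 2988 TPM, so intermediate cells lay between rich and low cells. Serbp1, an mRNA-binding protein found on ribosomes, behaved likewise with 40.9 TPM in intermediate, 96.7 TPM in rich and 10.2 TPM in low cells.

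Pou2f1 averaged 185 ± 255 TPM in 31 intermediate cells (22 detected, median 133) and 61.3 ± 126 TPM in 76 low cells (30 detected, median 0), a log2 ratio of 1.58. Zc3h14 had the largest smaller-series ratio, with 57.5 TPM in intermediate cells and 8.57 TPM in low cells, detected in 16 of 31 and 10 of 76 cells. Others rested on a minority of cells: Zfp968 had a median of 1.04 TPM in intermediate cells and 2.25 TPM in low cells, while its means were 61.6 and 15.6 TPM. Hspb11, Paip2b, Pign, Zfp825 and Aktip also had medians below 4 TPM in intermediate cells, so their ratios describe a minority of cells with high values.

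Further genes that passed the same rule are named here after their values were seen. S100a6, a small calcium-binding protein, ran from 0 to 2839 TPM (median 283) in intermediate cells and from 0 to 1264 TPM (median 142) in low cells. It averaged 528 ± 700 TPM in intermediate cells and 175 ± 228 TPM in low cells, detected in 26 of 31 and 45 of 76 cells. Sfrp1, a secreted inhibitor of Wnt signalling, averaged 140 ± 197 TPM in intermediate cells and 34.3 ± 64.7 TPM in low cells, detected in 20 of 31 and 26 of 76. Ndn (necdin, a growth suppressor) averaged 271 ± 286 TPM over all 31 intermediate cells (22 detected) and 96.3 ± 178 TPM over all 76 low cells (25 detected). Fzd5, a Wnt receptor, averaged 27.03 TPM in intermediate cells and 8.87 TPM in low cells.

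Among the 15 highest ranked lower genes were Vcam1 (an adhesion molecule of resting stem cells), S100b, Tcn2 (transport of vitamin B12), Wls (the carrier needed to secrete Wnt proteins), P4ha1 (collagen prolyl hydroxylase), Phka1 (a subunit of phosphorylase kinase), Smpd2 (a sphingomyelinase) and Tspan14 (a tetraspanin). Stx18, Yipf3, Sec11c, Tmem129 and Reep3, which act in or near the endoplasmic reticulum and Golgi, stood with them, as did Gpr146 and Scyl3. Vcam1 ran from 0 to 499 TPM (median 18.7) in intermediate cells and from 0 to 1326 TPM (median 381) in low cells, detected in 17 of 31 (54.8%) and 69 of 76 (90.8%). The mean was 124 ± 156 TPM in intermediate cells and 407 ± 294 TPM in low cells, a log2 ratio of -1.70 that was -1.60 in ogp and -1.89 in ogp2.

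Tcn2 averaged 153 ± 220 TPM in intermediate cells and 484 ± 403 TPM in low cells, with medians of 0.87 and 443 TPM. Wls averaged 147 ± 175 TPM in intermediate cells (median 112, 22 of 31 detected) and 367 ± 281 TPM in low cells (median 353, 66 of 76 detected). Yipf3 averaged 56.97 ± 93.1 TPM in intermediate cells and 242 ± 221 TPM in low cells, detected in 10 of 31 and 56 of 76 cells. Presence in most low cells was required of every lower gene by the rule, as presence in intermediate cells was of the higher genes. For Tcn2 and Wls the medians differed as well as the means. Not every lower gene differed in detection: Scyl3 was detected in 26 of 31 intermediate and 65 of 76 low cells.

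Other lower genes by the same rule, again named after their values were seen, included Htra1 and Slc39a12. Htra1, a secreted serine protease of astrocytes, was detected in every cell of both groups, at 56.9 to 4998 TPM (median 1280) in intermediate cells and 635 to 10298 TPM (median 4252) in low cells. Its mean was 1734 ± 1381 TPM in intermediate cells and 4282 ± 1956 TPM in low cells, a log2 ratio of -1.30. The zinc transporter Slc39a12 averaged 297 ± 338 TPM in intermediate cells (19 of 31 detected) and 773 ± 554 TPM in low cells (70 of 76 detected). Il33, an alarmin of glia, averaged 104 ± 174 TPM in intermediate cells and 236 ± 239 TPM in low cells. All of S100b, Vcam1 and Slc39a12 were detected together in 4 of 31 intermediate cells (12.9%, 3.63 to 29.8) and 41 of 76 low cells (53.9%, 42.1 to 65.5), and in 3 of 26 and 34 of 59 cells with 2500 to 4500 genes.

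**Figure D3:**
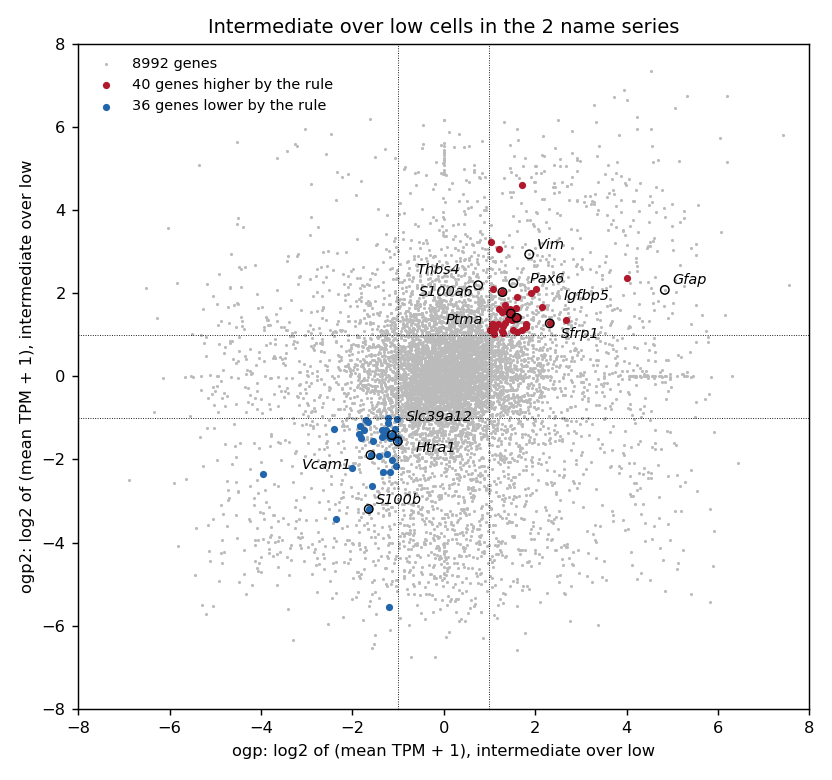
Each point is 1 of 8992 genes, with the log2 ratio of (mean TPM + 1) of intermediate over low cells in ogp on the horizontal axis and in ogp2 on the vertical axis, and dotted lines mark 2-fold. Red and blue points are the 40 higher and 36 lower genes of the naming rule, circled genes are those described here, and the wide cloud shows how little most ratios were shared by the series.

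Where intermediate cells stood between the other groups differed by gene. Of the 40 higher genes, 10 were also at least 2-fold above rich cells in both series, among them S100a6 (528 TPM in intermediate against 204 TPM in rich cells), Galnt16 (112 against 19.8 TPM), Atp8a1 (66.3 against 11.5 TPM), Sall2 (47.5 against 11.01 TPM) and Auts2 (23.9 against 5.65 TPM). Galnt16 encodes an O-glycosylation enzyme and Sall2 a zinc finger transcription factor. Only Ptma and Serbp1 were at least 2-fold below rich cells in both series. Of the 36 lower genes, 11 lay at least 2-fold above rich cells in both series and so between rich and low cells, among them Htra1 (195 TPM in rich cells), Slc39a12 (13.03 TPM), Tcn2 (35.1 TPM), Wls (46.1 TPM), Il33 (5.09 TPM) and Pfkp (1.71 TPM). Stx18, Ash2l and Top1 were at least 2-fold below rich cells. Stx18 had a log2 ratio to low cells of -3.15, and of -4.52 without the 2 cells with oligodendrocyte genes. This grouping was chosen after the values were seen. The 40 higher genes were selected for high values in intermediate cells, and the 36 lower genes for high values in low cells. No share over all genes was computed beside these counts, so they describe the selected genes only. Thbs4 averaged 170 TPM in intermediate cells and 27.5 TPM in rich cells, and Pax6 74.1 and 26.8 TPM. The other markers did not stand clearly above rich cells. Gfap averaged 286 TPM in intermediate and 254 TPM in rich cells, Igfbp5 91.05 and 96.3 TPM, and Vim 203 and 340 TPM.

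Lists of genes with related function give the wider picture, each described by its members with at least 10 TPM in either group and by its median log2 ratio. Members can pass that filter through 1 group alone, so the counts describe and do not test. The SVZ stem cell list had 15 of 20 members past the filter, of which 7 were at least 2-fold higher and 0 lower, beside 19.1% and 11.5% of all genes. These were Gfap, Vim, Pax6, Igfbp5, Thbs4, Prom1 and Fabp7, and the median was 0.63 (0.75 in ogp, 0.54 in ogp2). It was 0.38 without ogp replicate 41. The 4 markers chosen for this comparison (Gfap, Vim, Pax6 and Igfbp5) are among them, so the median is not independent of that choice. Those 4 markers were also the only members of the list at least 2-fold higher in both series. The summed level of the 20 genes was not higher, with a median of 4860 TPM in intermediate cells and 5151 TPM in low cells. Fabp7, the brain fatty acid binding protein, averaged 518 ± 805 TPM in intermediate cells and 237 ± 374 TPM in low cells, and its log2 ratio of 1.13 was 0.72 without the 2 cells with oligodendrocyte genes, so that 6 of the 7 kept a 2-fold ratio. The median was then 0.51. Sox9 (307 and 283 TPM) and Nr2e1 (131 and 122 TPM), transcription factors of glia and stem cells, were close in the 2 groups.

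Genes of astrocyte function stood lower as a group by small amounts. Of 28 genes shared by resting stem cells and astrocytes, all passed the filter, 20 lay below 0 and 8 above, with a median of -0.33 (-0.28 in ogp, -0.22 in ogp2), with Gfap at least 2-fold higher and Htra1 and Gjb6 at least 2-fold lower. Over all genes, 57.4% lay above 0 and 42.6% below. Of 22 genes for glutamate, ion and water handling 21 passed, with a median of -0.47 (-0.43 in ogp, -0.62 in ogp2). Of them 0 were at least 2-fold higher and 3 (14.3%) lower, beside 19.1% and 11.5% of all genes. Gjb6 (connexin 30) averaged 428 ± 456 TPM in intermediate cells and 888 ± 820 TPM in low cells, a log2 ratio of -1.05 that was -0.96 without the 2 cells with oligodendrocyte genes. Slc7a10, a small neutral amino acid transporter, averaged 431 ± 373 TPM in intermediate cells and 886 ± 445 TPM in low cells. Gja1 averaged 1963 ± 1164 TPM in intermediate cells and 3437 ± 1487 TPM in low cells. Slc1a2, the main astrocytic glutamate transporter GLT-1, differed little, with 1016 ± 706 TPM in intermediate cells and 966 ± 420 TPM in low cells. The summed level of the 22 genes had a median of 15054 TPM in intermediate cells and 21220 TPM in low cells.

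Lysosomal, sterol and glucose genes pointed the same way. Of 28 lysosomal genes past the filter 25 lay below 0 (89.3%, against 42.6% of all genes), with a median of -0.39. At least 2-fold lower were 4 (14.3%, near the 11.5% of all genes), Glb1, Tpp1 and Asah1 among them, and Gla was at least 2-fold higher. In both name series, 2 lysosomal genes were at least 2-fold lower. Tpp1, a lysosomal peptidase, averaged 141 ± 169 TPM in intermediate cells and 330 ± 325 TPM in low cells. Asah1 (acid ceramidase) averaged 120 ± 137 TPM in intermediate cells and 280 ± 281 TPM in low cells. Cholesterol synthesis and uptake genes had a median of -0.41 over 23 genes, with 4 (17.4%) at least 2-fold lower, including Sc5d (87.5 TPM in intermediate and 193 TPM in low cells). Of these 23, 1 was at least 2-fold lower in both series. Of 17 glucose uptake, glycolysis and lactate genes 15 lay below 0 (median -0.20). Slc2a1, Pfkl, Pfkp and Slc16a1 (23.5% of the 17) were at least 2-fold lower, the first 3 in both series. Slc2a1, the glucose transporter GLUT1, averaged 99.9 ± 145 TPM in intermediate cells (17 of 31 detected) and 294 ± 286 TPM in low cells (65 of 76 detected). The phosphofructokinase Pfkp averaged 61.6 ± 127 TPM in intermediate cells and 169 ± 297 TPM in low cells. Genes of oxidative phosphorylation, with a median of 0.056 over 75 genes and 1 gene beyond 2-fold (Ndufa9, lower), did not share that direction.

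**Figure D4:**
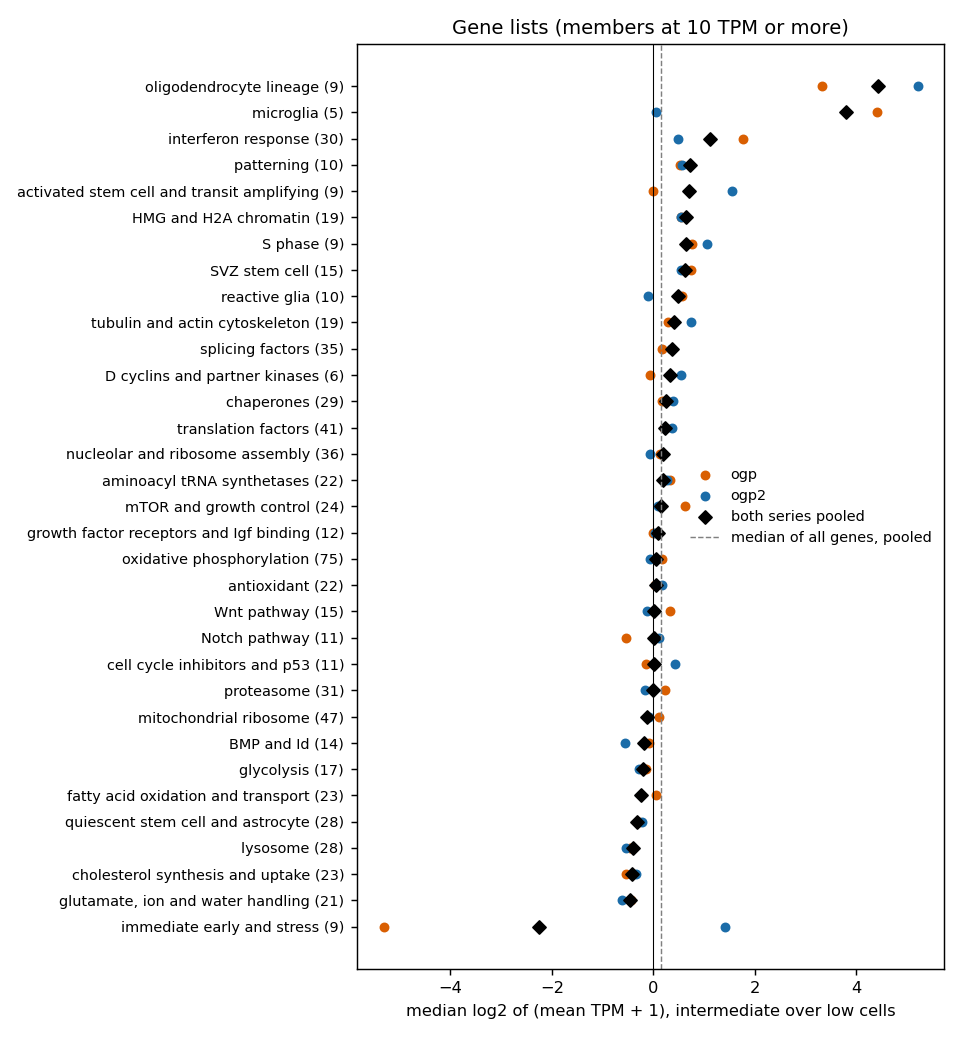
Each row is a gene list, with its number of members at 10 TPM or more in brackets, and the points give the median log2 ratio of intermediate over low cells in both series pooled (diamond), in ogp and in ogp2. The dashed line is the median of all genes, 0.15. The SVZ stem cell, HMG and H2A, and interferon lists lie to its right and the lysosomal, sterol and glutamate lists to its left in both series, whereas the immediate early list lies at -5.32 in ogp and 1.42 in ogp2.

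For the translation machinery outside the ribosomal proteins the size of the difference depended on the measure. Translation factors had a median of 0.23 over 41 of 42 genes, with 1 gene at least 2-fold higher (Eif4b) and 0 lower, near the 0.15 of all genes. As a difference of mean log2 values the medians were 0.76 for translation factors and 0.60 for aminoacyl tRNA synthetases, against 0.23 over all genes. That shift was not particular to translation, since proteasome subunits had 0.58 and splicing factors 0.52 on the same measure. Nucleolar and ribosome assembly genes had 0.18. Eef1d, an elongation factor subunit that passed the naming rule, averaged 246 ± 358 TPM in intermediate cells and 136 ± 246 TPM in low cells. Nucleolar and ribosome assembly genes had 5 of 36 (13.9%) at least 2-fold higher (Ncl, Nhp2, Dkc1, Polr1d and Ubtf) and 6 (16.7%) lower (Fbl, Nop56, Gar1, Nop14, Nop16 and Polr1b), near the 19.1% and 11.5% of all genes, and a median of 0.20. Nop14 had a log2 ratio of -1.21, and of -1.84 without the 2 cells with oligodendrocyte genes. Nop56, a core protein of box C/D particles, averaged 19.9 ± 67.9 TPM in intermediate cells and 100.0 ± 202 TPM in low cells. Aminoacyl tRNA synthetases had 7 of 22 members (31.8%) at least 2-fold higher and 1 lower, with a median of 0.19, and splicing factors a median of 0.37 over 35 genes. Proteasome subunits had a median of -0.00289 over 31 genes.

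Chromatin and cytoskeletal lists had medians above that of all genes. Of 19 HMG, H2A and related chromatin genes past the filter 18 lay above 0 (94.7%; median 0.66, with 0.56 in ogp and 0.54 in ogp2), against 57.4% of all genes, and 5 (26.3%) were at least 2-fold higher against 19.1% of all genes, including Ptma, Hmgb3 and the histone chaperone Anp32b. Hmgb3 averaged 31.96 ± 73.1 TPM in intermediate cells and 2.35 ± 14.9 TPM in low cells, with 7 of 31 and 5 of 76 cells positive. Tubulin and actin genes had a median of 0.41 over 19 genes, with 6 (31.6%) at least 2-fold higher and 0 lower, and a median of 0.21 without the 2 cells with oligodendrocyte genes. Tmsb4x, the actin-binding thymosin beta 4, averaged 396 ± 440 TPM in intermediate cells and 138 ± 210 TPM in low cells, far below the 4276 TPM of rich cells. Marcks, a membrane protein that binds actin, averaged 34.8 ± 70.9 TPM in intermediate cells (13 of 31 detected) and 3.17 ± 14.8 TPM in low cells (7 of 76). Without those 2 cells the intermediate mean of Marcks was 20.4 TPM, a log2 ratio of 2.36 in place of 3.10. The patterning list had a median of 0.73 over 10 of 20 genes, and of -0.12 when the highest cell of each group was left out gene by gene. Emx2, a dorsal forebrain factor, averaged 51.7 ± 130 TPM in intermediate cells (9 of 31 detected) and 5.84 ± 23.5 TPM in low cells (7 of 76).

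Genes of activation and DNA replication were detected in few cells. Egfr, a receptor of activated stem cells, averaged 37.5 ± 71.4 TPM in intermediate cells (10 of 31) and 22.0 ± 54.6 TPM in low cells (19 of 76), a log2 ratio of 0.74 pooled and 1.56 in ogp2, while the ogp means were close. Of 24 S phase genes 9 passed the filter. Lig1, Dut and Mcm4 (33.3%) were at least 2-fold higher and Mcm7 (11.1%) lower, beside 19.1% and 11.5% of all genes. Only Dut was at least 2-fold higher in both series. Mcm4 averaged 23.5 TPM in intermediate cells and 9.64 TPM in low cells, and its log2 ratio was 0.96 without the 2 cells with oligodendrocyte genes. Lig1, a DNA ligase of replication, was detected in 7 of 31 intermediate and 2 of 76 low cells. Its log2 ratio was 0.83 in ogp and 5.67 in ogp2.

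Among developmental signalling genes few lists stood apart as a group. The Wnt list had a median of 0.021 over 15 of 24 genes. With the series pooled, 5 (33.3%) were at least 2-fold higher (Sfrp1, Notum, Fzd3, Fzd7 and Ctnnb1) and 0 lower, beside 19.1% and 11.5% of all genes. Only 2, Sfrp1 and Notum, were at least 2-fold higher in both series. The Notch list had a median of 0.018 over 11 of 18 genes, with Lfng and Hey2 at least 2-fold lower. Lfng, a glycosyltransferase that modifies Notch, averaged 34.9 ± 39.5 TPM in intermediate cells and 71.8 ± 81.8 TPM in low cells, a log2 ratio of -1.02 that was -0.95 without the 2 cells with oligodendrocyte genes. Hes5, a Notch target, averaged 407 ± 381 TPM in intermediate cells and 738 ± 688 TPM in low cells. In the BMP list (median -0.18 over 14 of 21 genes) Smad5, a signal transducer of BMP receptors, averaged 45.8 ± 89.9 TPM in intermediate cells (11 of 31 detected) and 2.16 ± 10.1 TPM in low cells (7 of 76).

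Interferon response genes were higher, through a small number of cells. Of 32 genes 30 passed the filter, with a median of 1.12 (1.76 in ogp, 0.49 in ogp2). With the series pooled, 15 (50%) were at least 2-fold higher and 2 (6.67%, Irf1 and Ifit2) lower, beside 19.1% and 11.5% of all genes. In both series, 7 were at least 2-fold higher. The summed level of the list ran from 410 to 31475 TPM (median 3005) in intermediate cells and from 6.05 to 13561 TPM (median 2048) in low cells. The 4 highest intermediate cells, 2 from each series, held 31475, 16126, 13568 and 8149 TPM, with 27, 18, 22 and 16 of the genes at 10 TPM or more. Without the highest of them, ogp replicate 41, the median was 0.67. Isg15, a ubiquitin-like interferon product, was detected in 5 of 31 intermediate cells (highest 2770 TPM) and listed at 0 in all 76 low cells. Ifitm3, an antiviral membrane protein, averaged 284 ± 551 TPM in intermediate cells (11 of 31) and 93.4 ± 295 TPM in low cells (16 of 76). With R under 1.5 and from 2.5 as limits the list median was 0.087.

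**Figure D5:**
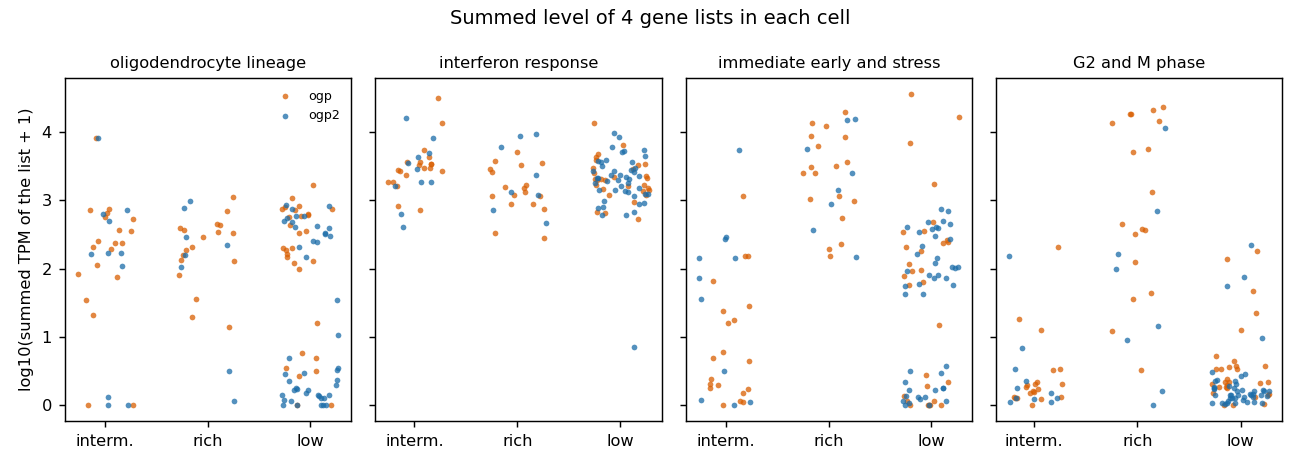
Each point is 1 cell, with log10 of the summed TPM + 1 of a gene list, for intermediate, rich and low cells from left to right, orange for ogp and blue for ogp2. The 2 intermediate cells at 8310 and 8135 TPM stand apart in the oligodendrocyte panel, single ogp cells top the interferon panel (intermediate) and the immediate early panel (low), and G2 and M phase genes reach high sums in rich cells only.

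Markers of other cell types were sparse in both groups, and their part in the results was not tested beyond the values given. For microglia, 7 of 12 markers, Ptprc, Itgam and Cx3cr1 among them, stayed below 1 TPM in every intermediate cell and 8 of 12 in every low cell. The summed level ran from 0 to 4751 TPM in intermediate and from 0 to 871 TPM in low cells, the highest value coming from C1qb (3762 TPM) in ogp replicate 38, without which the list median of 3.80 was -0.30. For endothelium, 8 of 10 markers, Cldn5 and Cdh5 among them, stayed below 1 TPM in every cell of both groups, and the summed level reached 617 TPM in intermediate cells, nearly all Itm2a in ogp2 replicate 87, 1 of the 2 cells with oligodendrocyte genes, and 11.4 TPM in low cells. Without those cells Itm2a averaged 10.1 TPM in intermediate cells and 0.13 TPM in low cells. For mural cells 8 of 10 markers stayed below 1 TPM in every intermediate cell and 9 of 10 in every low cell, with sums of up to 265 and 296 TPM. For ependymal cells 8 of 12 and 6 of 12 markers stayed below 1 TPM, with sums of up to 2255 TPM in intermediate and 1892 TPM in low cells. For neuroblasts 7 of 16 and 11 of 16 markers did so, with sums of up to 1241 and 241 TPM, the 2 highest in the cells with oligodendrocyte genes. For mature neurons 5 of 10 and 2 of 10 did so, with sums of up to 451 and 332 TPM.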

How the data were processed

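Single-cell RNA was read by Smart-seq2 in 133 SVZ cells. The values the authors deposited are TPM, made with STAR 2.4.0g1, RSEM 1.2.18 and build mm10 per the submitters' processing notes; the gene annotation is not given in the sources used here. Reads per cell cannot be recovered from TPM, and no count model was used. The tables list 43309 gene identifiers, of which 42425 had a symbol in the GENCODE table for GRCm38; of identifiers sharing a symbol the highest was kept. Columns sum to between 999576 and 1000000 except 5 (66189 to 309864), of which 4 are low cells, 1 is rich and 0 are intermediate; all were rescaled to 1000000. Cells were picked singly per the labels' protocols and no doublet caller was run.

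Means, SDs, detection (1 TPM), log2 ratios with pseudocount 1 and exact Clopper-Pearson 95% intervals were computed with numpy 2.4.6, pandas 2.3.3 and scipy 1.17.1. Of these only the log2 ratio was checked, by multiplying known folds into the values of low cells. Named genes needed 20 TPM and detection in 50% of cells of the higher group, a 2-fold ratio in ogp and in ogp2, and the same sign of the mean log2 difference in both; up to 15 per direction were named by the smaller series ratio, with up to 4 members of each of 39 lists. Among eligible list members, those printed were picked with their values in view. The members and lists were chosen with earlier results of these data known. Ribosomal protein genes (89 identifiers) chose the groups and are not described. Alternatives covered pseudocount, filter, scaling, limits of R, name series, genes detected and single cells. The 18 libraries of sorted populations and the 17 astrocytes were not analysed here. Some genes are not reported here. Promoter sequences are from RefSeq on GRCm38.p6, where all 4 genes looked for matched.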

Additional observations from a re-analysis of the deposited data

Results flagged for a closer look

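The immediate early and stress list pointed in opposite directions in the 2 name series. Its median log2 ratio of intermediate over low cells was -5.32 in ogp and 1.42 in ogp2, and the difference between the series was not tested. Of 20 genes 9 passed the filter, 8 of them (Fos, Junb, Egr1, Zfp36, Dusp1, Nr4a1, Btg2 and Klf6) at least 2-fold lower with the series pooled, for a median of -2.25. Jun was higher, with a log2 ratio of 1.76, but had -0.47 without the 2 intermediate cells with oligodendrocyte genes, when it averaged 5.88 TPM in intermediate cells and 8.56 TPM in low cells. The list median was then -4.01, with Fos at -6.85, Junb at -6.77 and Egr1 at -4.74, against -1.81, -2.25 and -1.95 with those cells. Single cells carried most of the signal. Among low cells the 3 highest, all of ogp, held 36011, 16444 and 6823 TPM of the list, 22022 TPM of it Fos in the first (replicate 82), and the second has 1 of the incomplete columns. Among intermediate cells ogp2 replicate 87 and ogp replicate 22, which carry oligodendrocyte genes, held 5373 and 1170 TPM. Without ogp replicate 82 the pooled median was -0.78, and without ogp2 replicate 87 it was -3.56. The median summed level was 4.95 TPM in intermediate cells and 74.6 TPM in low cells.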

How the results depend on the processing

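The count of genes at least 2-fold higher (1720) became 952 with pseudocount 10, 1007 with means of logs, 960 with the highest cell of each group left out, 629 with 10 TPM required in both groups and 3126 with no filter. The count of lower genes (1033) became 534, 433, 400 and 2396 under pseudocount 10, means of logs, the filter in both groups and no filter, and 1629, 1878 and 1804 in ogp alone, in ogp2 alone and with R under 1.5 against R from 2.5. The interferon median of 1.12 became 0.52 with means of logs and 0.087 under those stricter limits (14 and 37 cells), and the intermediate share of 23.3% became 10.5% from R of 2.5. Leaving out each cell in turn gave 1638 to 1794 higher and 1022 to 1096 lower genes, and medians of 0.38 to 0.74 (SVZ stem cell), -0.39 to -0.29 (quiescent and astrocyte), -0.57 to -0.43 (glutamate) and 0.67 to 1.496 (interferon). Medians of small lists changed sign: microglia became -0.84, -0.35, -0.000435, -0.46 and -0.30 with the highest cell left out, the filter in both groups, no filter, ogp2 alone and 1 cell left out (highest 3.84); patterning became -0.12 and -0.11 under the first 2 of these; immediate early became 1.86 in ogp2 alone; the activated list became -0.068 under the stricter limits. With the main settings the activated stem cell and transit amplifying list had a median of 0.695 (0.0031 in ogp, 1.56 in ogp2). The cause of these changes was not tested. For 34 named genes and markers under 15 alternatives, 443 of 510 values moved by less than 1.5-fold, 67 by more and 0 changed sign. The named genes were chosen by a 2-fold ratio in each series, so alternatives by series could not change their sign. The sign of the mean log2 difference in each series was part of that choice too. An alternative without mitotic cells removed no cell (31 and 76 remained) and left every value unchanged. Leaving out the cells with oligodendrocyte genes and single cells was added after the data were seen. Scaling by the median ratio shifts every ratio by a fixed amount. No paired analysis was possible because the cell numbers that ogp and ogp2 share only name cells and no test was made. Unknown depth limits every share of detected cells.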
